A study of Schizosaccharomyces pombe with 8 samples.

Results

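The genes described here are 64 genes of fission yeast (Schizosaccharomyces pombe) that act in, or are named after, ribosome assembly and ribosomal RNA processing. They were chosen by symbol: utp, nop, rrp or dbp followed by a number, together with mak16, rpf2 and ytm1. All of the genes that the symbol rule finds in the annotation table were measured, so the set is 64 of the 4940 genes on the array. Classes were assigned by symbol, from the known roles of the products. This placed 31 in the small-subunit processome, 19 in assembly of the 60S subunit, 8 in the RNA exosome and 6 in none of these.

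The study measured messenger RNA of growing cells on 1-colour NimbleGen arrays, with 2 arrays for each of 4 strains. The first disruptant carried pka1::ura4 (strain YMP37, Δpka1), a disruption of the catalytic subunit of cyclic AMP dependent protein kinase (PKA). The second carried cgs1::ura4 (YMP41, Δcgs1), a disruption of the regulatory subunit that holds the same kinase inactive. The third carried ppt1::kanMX6 (OG1, Δppt1), a disruption of the prenyltransferase that attaches the isoprenoid tail in making coenzyme Q. The reference was the wild type strain PR110, of genotype h+ leu1-32 ura4-D18. Each array held RNA of its own culture, grown to log phase in the rich medium YES, 50 mL for 8 h at 30 °C. The titles of the 4 first replicates share an array code, and those of the 4 second replicates share another. The labels do not say what the code stands for; it is taken here as the slide, and the sets are called slide 1 and slide 2. Each disruption is represented by 1 strain, so a feature of that strain and the effect of the disruption cannot be told apart.

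In eukaryotes a long precursor RNA is transcribed in the nucleolus and packaged as it is made. The small-subunit processome, built from the UtpA, UtpB and UtpC complexes and the U3 small nucleolar ribonucleoprotein (snoRNP), folds and cleaves the 18S part. A separate set of helicases, methyltransferases and placeholder proteins assembles the 60S part, and the exosome, a ring of inactive RNase-like subunits with a cap and attached nucleases, trims precursor ends and degrades the spacers. In budding yeast these genes are transcribed together as one growth-regulated group. Most roles named below were worked out in budding yeast and are given as background.

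The disrupted genes were read first, as a check of the labels. The signal of pka1 (SPBC106.10) was 38387 and 46832 on the arrays labelled Δpka1, against 28743 and 34715 in the wild type, so the gene's probes showed no loss. Whether these probes lie inside the disrupted stretch was not given in the sources used here, and the arrays are called "the arrays labelled Δpka1" throughout. The cgs1 signal was 1404 and 1360 in Δcgs1, against 20232 and 28238 in the wild type, and the ppt1 signal (SPAC56F8.04c) was 2497 and 1910 in Δppt1, against 32691 and 41517 in the wild type. The ura4 marker read 32716 and 37383 on the arrays labelled Δpka1 and 39913 and 44787 in Δcgs1, but 1362 and 1627 in the wild type, so against wild type the marker and either disruption cannot be told apart. For the 3 disruptant arrays of slide 2 the position in the sample title differs from that in the deposited table, so the strain named by the labels was used, and the marker, cgs1 and ppt1 signals follow it. Array medians lay between 21210 and 22148 on slide 1 and between 24677 and 25548 on slide 2, and the random control probes between 821 and 1268. Signals are linear intensities, summarised by the depositors, and were compared on the log2 scale with limma's moderated test. A gene is said to have risen or fallen where its p-value, adjusted over all 4940 genes by the Benjamini-Hochberg method, was under 0.05. Because the slides differed in overall brightness, a second fit with slide as a block is given beside the first where it changed a call. On the arrays labelled Δpka1, pka1 differed from wild type by 0.42 (adjusted p = 0.164, or 0.00493 with the block). There cgs1 read 46361 and 54252 and had risen against wild type (1.07, adjusted p = 0.0209). Precision is limited by the 2 arrays per strain: the median standard error (SE) over all genes was 0.143 log2 units without the block and 0.0589 with it.

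On the arrays labelled Δpka1, ribosome assembly genes as a group had lower signal than in wild type. 13 of the 64 fell and 0 rose, where 4.13% of all genes fell and 4.33% rose. With slide as a block 52 of 64 fell, where 24.0% of all genes fell, and 0 rose (14.7% of all genes). The log2 difference was below 0 for 63 of the 64 (59.5% of all genes) and on both slides for 62 (50.5% of all genes). The median difference over the 64 was -0.43 (range -1.00 to 0.02), against a median of -0.04 over all genes, and it was -0.40 on slide 1 and -0.48 on slide 2. Both arrays labelled Δpka1 read below both wild type arrays for 52 of the 64, a pattern found in 26.2% of all genes. Without the block fewer of the 64 passed the test when either array labelled Δpka1, either Δcgs1 array or the second wild type array was left out. Fewer of all genes fell in these fits as well. Such a fit leaves that strain on 1 slide. With the block the counts lay between 38 and 53. Each array averages a whole culture, so a lower signal in every cell and a lower share of cells with a high signal cannot be told apart.

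**Figure D1:**
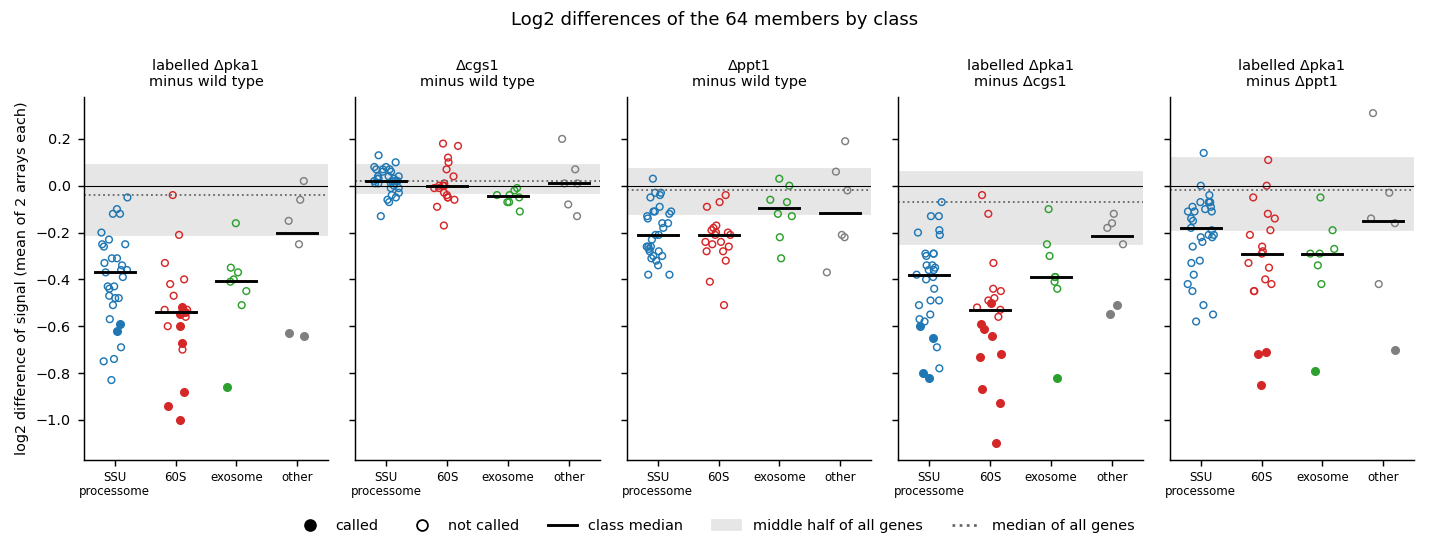
The log2 difference of each gene (points) in the 5 comparisons, by role; filled points passed the test without the block, bars are class medians, and the shaded band is the interquartile range of all genes around their median (dotted). In the arrays labelled Δpka1 against wild type the medians are -0.37 for the small-subunit processome, -0.54 for 60S assembly and -0.41 for the exosome; in Δcgs1 against wild type the points lie around 0.

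The 60S assembly genes had the lowest median of the 3 classes, -0.54 (range -1.00 to -0.04), and 8 of the 19 fell, or 17 of 19 with the block (4.13% and 24.0% of all genes). The most reduced was mak16 (SPAC222.06), which in budding yeast is a component of early pre-60S particles. Its signal was 6350 and 6597 on the arrays labelled Δpka1, 12542 and 15387 in Δcgs1, 10722 and 10566 in Δppt1, and 11937 and 14081 in the wild type. The arrays labelled Δpka1 stood below all 6 others, at 49.9% of wild type (log2 difference -1.00, SE 0.13, adjusted p = 0.00524). The call held when any of the 8 arrays was left out.

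Next came rrp14 (SPAC8C9.10c), whose budding yeast counterpart joins early pre-ribosomes. It read 6285 and 7398 on the arrays labelled Δpka1, 12143 and 13949 in Δcgs1, 11709 and 12832 in Δppt1, and 11819 and 14416 in the wild type. It fell to 52.2% of wild type (-0.94, SE 0.14, adjusted p = 0.0105), and the 3 other strains overlapped one another. The gene rpf2 (SPAC926.08c) encodes the factor that, with Rrs1, brings the 5S ribonucleoprotein into the pre-60S particle. Its signal was 23215 and 26691 on the arrays labelled Δpka1, 43114 and 47793 in Δcgs1, 39234 and 42375 in Δppt1, and 41598 and 50426 in the wild type. This was 54.3% of wild type (-0.88, SE 0.13, adjusted p = 0.0098), again with the arrays labelled Δpka1 alone at the low end. Neither rrp14 nor rpf2 passed the threshold when the first array labelled Δpka1 was left out without the block.

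The other 5 called 60S genes fell less. The gene ytm1 (SPAC890.04c) encodes a protein that the giant ATPase Mdn1 pulls from the pre-60S particle. It read 26002 and 30431 on the arrays labelled Δpka1, 41858 and 43915 in Δcgs1, 36937 and 38436 in Δppt1, and 40860 and 48709 in the wild type (-0.67, SE 0.12, adjusted p = 0.0225). The DEAD-box helicase gene dbp3 (SPBC17D1.06) read 35525 and 39962 on the arrays labelled Δpka1, against 54860 and 59053 in the wild type (-0.60, SE 0.10, adjusted p = 0.0159). In both genes the arrays labelled Δpka1 lay below all 6 other arrays. The helicase gene dbp9 (SPCC1494.06c) read 10030 and 12035 on the arrays labelled Δpka1, against 15777 and 16223 in the wild type (-0.54, SE 0.12, adjusted p = 0.0414). The nucleolar pre-60S factor nop16 (SPBC1539.10) read 11893 and 12123 on the arrays labelled Δpka1, against 16543 and 18694 in the wild type (-0.55, SE 0.12, adjusted p = 0.0376). The gene rrp8 (SPAC56F8.09) encodes a methyltransferase that modifies the large rRNA, and read 12558 and 12686 on the arrays labelled Δpka1, against 16779 and 19544 in the wild type (-0.52, SE 0.12, adjusted p = 0.0445). In all 5 both arrays labelled Δpka1 lay below both wild type arrays, a pattern found in 26.2% of all genes. The calls on dbp9 and nop16 were lost in every fit without the block that left out an array, and ytm1 kept its call in 3 of 8, dbp3 in 6 of 8 and rrp8 in 1 of 8.

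Other 60S genes had differences as large and were not called without the block. The gene nop52, counterpart of the budding yeast early pre-60S factor Rrp1, differed by -0.70 with a wider SE of 0.21 (adjusted p = 0.105, or 0.00075 with the block). The pre-60S factor gene rrp16, listed in the annotation with the synonym nop53, differed by -0.60 (adjusted p = 0.058, or 0.00246 with the block). At the other end stood dbp6, a helicase of the earliest pre-60S particles in budding yeast. It read 48763 and 55593 on the arrays labelled Δpka1 and 52240 and 54727 in the wild type (-0.04, SE 0.11, adjusted p = 0.921), and the groups overlapped. At a wild type mean of 53484 dbp6 is a bright gene, and whether its difference is understated was not tested. Both dbp6 and rrp17 (-0.21) missed the threshold with the block too, alone among the 60S genes.

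**Figure D2:**
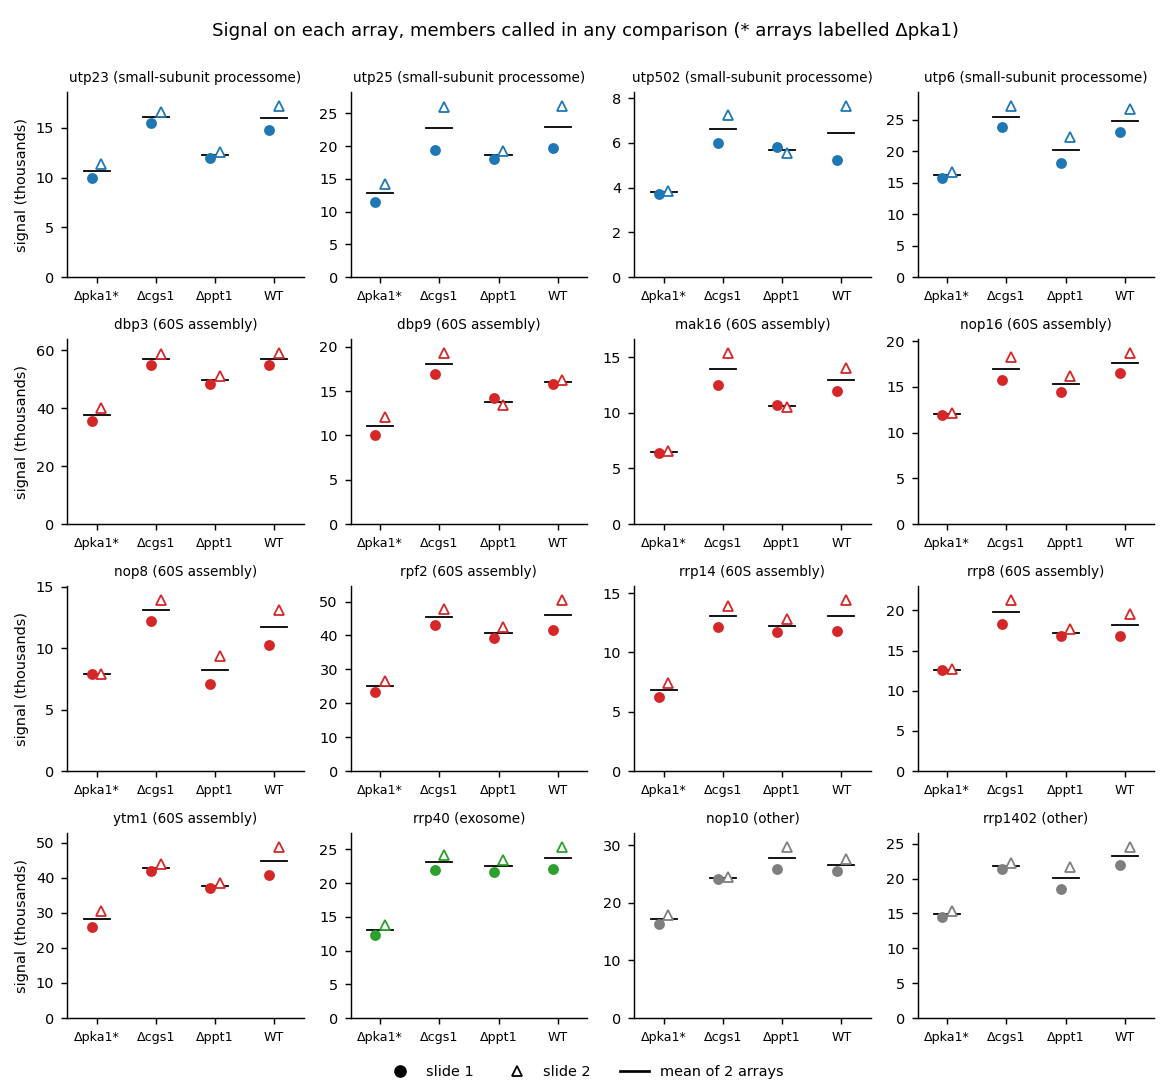
Signal on each array (linear intensity divided by 1000) for the 16 genes called in any comparison; filled circles are slide 1, open triangles slide 2 and bars the mean of the 2 arrays. In mak16 the arrays labelled Δpka1 read 6350 and 6597, below all 6 other arrays, and in nop8 the Δppt1 arrays (7084 and 9331) were also low.

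In the small-subunit processome all 31 differences were below 0 on both slides, with a median of -0.37 (range -0.83 to -0.05). 2 of the 31 fell, a share near the 4.13% of all genes, and 25 of 31 fell with the block (24.0% of all genes). One was utp6 (SPBC244.02c), a scaffold subunit of the UtpB complex, which read 15667 and 16685 on the arrays labelled Δpka1, 23845 and 27175 in Δcgs1, 18165 and 22287 in Δppt1, and 23031 and 26737 in the wild type. It stood at 65.2% of wild type (-0.62, SE 0.14, adjusted p = 0.0439), with Δppt1 between the arrays labelled Δpka1 and wild type. The other was utp23 (SPCC18.12c), related to the processome nuclease Utp24 and needed in budding yeast to release the small nucleolar RNA snR30. It read 9913 and 11379 on the arrays labelled Δpka1, 15505 and 16620 in Δcgs1, 12022 and 12539 in Δppt1, and 14835 and 17194 in the wild type. This was 66.5% of wild type (-0.59, SE 0.12, adjusted p = 0.0283). Without the block utp6 kept its call in 2 and utp23 in 1 of the 8 fits that left out an array.

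The largest differences of the class were in genes whose arrays spread more. The gene utp25 (SPCC1827.01c), for a processome factor with a helicase-like fold, read 11402 and 14249 on the arrays labelled Δpka1, 19476 and 25983 in Δcgs1, 18018 and 19218 in Δppt1, and 19685 and 26102 in the wild type. At -0.83 (SE 0.20) it lay closest to the threshold among the uncalled genes, with an adjusted p of 0.0532 (0.00214 with the block), just as rrp8 (0.0445) lay closest on the called side. The UtpA subunit gene utp8 differed by -0.75 (adjusted p = 0.0605, or 0.000576 with the block), utp502 by -0.74 (adjusted p = 0.0602, or 0.0159 with the block) and the helicase gene rrp3 by -0.69 (adjusted p = 0.0585, or 0.000573 with the block). The annotation gives utp502 the synonym utp5, and whether its probes also bind RNA of utp5 (SPAC20H4.01, -0.39) was not tested.

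Subcomplexes were read from genes of the set alone. The medians were -0.39 over its 5 UtpA genes (utp4, utp5, utp8, utp10 and utp15), -0.35 over its 4 UtpB genes (utp6, utp13, utp18 and utp21) and -0.50 over its 2 UtpC genes (utp22 and rrp7). With the block 3 of 5, 4 of 4 and 2 of 2 fell (24.0% of all genes). The UtpB gene dip2, outside the symbol rule, differed by -0.49 (adjusted p = 0.116, or 0.000756 with the block). Within UtpA the differences ranged between -0.75 in utp8 and -0.12 in utp10 and utp15. The smallest differences of the class were in nop56 and nop58, which encode core proteins of the box C/D snoRNPs. The gene nop56 read 52358 and 59071 on the arrays labelled Δpka1 and 55507 and 60034 in the wild type (-0.05). The gene nop58 read 47251 and 55217 on the arrays labelled Δpka1 and 52145 and 57374 in the wild type (-0.10). Of the other core protein genes, outside the symbol rule, fib1 differed by -0.04 and snu13 by -0.35 (adjusted p = 0.0909, or 0.00575 with the block). Both nop56 and nop58 are among 12 of the 64 whose wild type mean exceeded 50000. The median difference of those 12 was -0.25 (range -0.60 to -0.04), and that of the other 52 was -0.48 (range -1.00 to 0.02). No array value exceeded 65239, so differences of bright genes may be understated; how much was not tested. The gene utp16 read between 1244 and 2077 on all 8 arrays, at or below the 2497 that a deleted gene still gave, and its difference of -0.25 carries no information on its level.

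**Figure D3:**
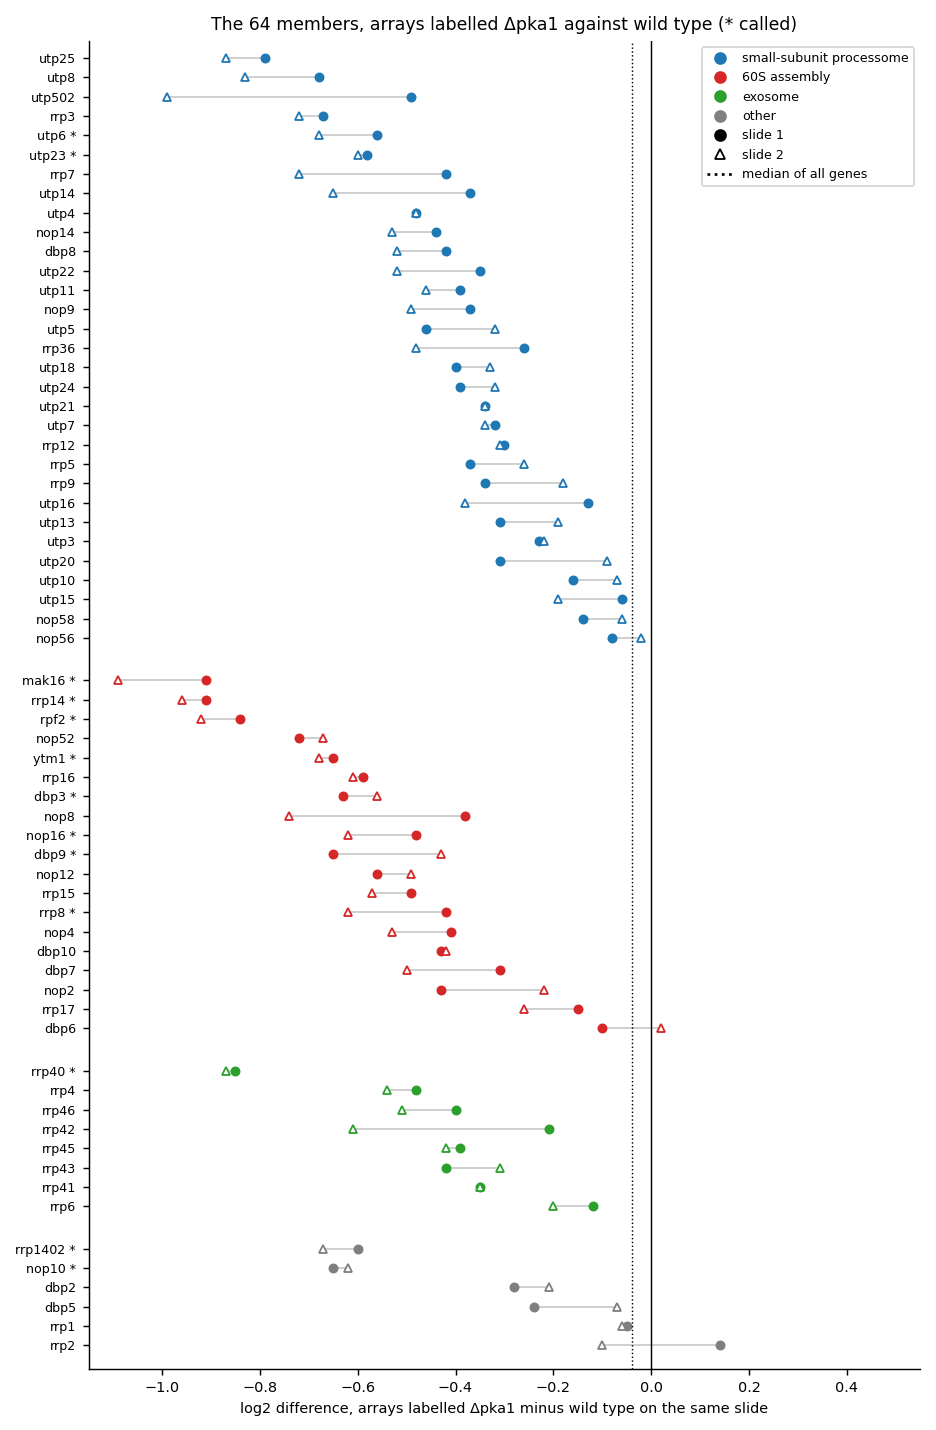
The log2 difference of each of the 64 genes, arrays labelled Δpka1 minus wild type, on slide 1 (filled) and slide 2 (open), grouped by role, with the median of all genes as a dotted line. All but dbp6 on slide 2 and rrp2 on slide 1 lie below 0, and the symbols of mak16 lie farthest to the left, at -0.91 and -1.09.

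All 8 exosome genes had lower signal on the arrays labelled Δpka1 on both slides, with a median of -0.41 (range -0.86 to -0.16). One fell without the block and 7 of 8 with it (4.13% and 24.0% of all genes). This was rrp40 (SPAC22A12.12c), which encodes an RNA-binding cap subunit. It read 12276 and 13820 on the arrays labelled Δpka1, 21975 and 24148 in Δcgs1, 21691 and 23497 in Δppt1, and 22100 and 25331 in the wild type. The arrays labelled Δpka1 stood below all 6 others, at 55.1% of wild type (-0.86, SE 0.12, adjusted p = 0.00609), and the call held when any array was left out. The other cap gene of the set, rrp4, differed by -0.51 (adjusted p = 0.0949, or 0.00086 with the block). The 5 ring genes of the set, rrp41, rrp42, rrp43, rrp45 and rrp46, lay close together, between -0.45 and -0.35. Among these 5, rrp45 read 12271 and 13332 on the arrays labelled Δpka1, against 16042 and 17828 in the wild type (-0.40, SE 0.11, adjusted p = 0.0663, or 0.00381 with the block). The ring gene mtr3, outside the symbol rule, differed less (-0.20, adjusted p = 0.649, or 0.0325 with the block). So did the cap gene csl4, also outside it (-0.26, adjusted p = 0.39, or 0.0214 with the block). The nuclear exonuclease gene rrp6 differed least, with 32325 and 39322 on the arrays labelled Δpka1 and 35232 and 45316 in the wild type (-0.16, SE 0.18, adjusted p = 0.701, or 0.0428 with the block).

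Of the 6 genes outside these classes, 2 fell, or 3 with the block (4.13% and 24.0% of all genes). The gene nop10 (SPAP27G11.13c) encodes a core protein of the H/ACA snoRNPs, which guide pseudouridylation. It read 16290 and 17971 on the arrays labelled Δpka1, 24131 and 24478 in Δcgs1, 25868 and 29668 in Δppt1, and 25542 and 27613 in the wild type (-0.63, SE 0.11, adjusted p = 0.0156). The other H/ACA core protein genes, outside the symbol rule, differed less. For gar1 it was -0.02, for cbf5 -0.06 and for nhp2 -0.34 (adjusted p = 0.216, or 0.00306 with the block). The gene rrp1402 (SPBC947.07), which shares the synonym rrp14, read 14478 and 15367 on the arrays labelled Δpka1, 21455 and 22267 in Δcgs1, 18476 and 21670 in Δppt1, and 21893 and 24523 in the wild type (-0.64, SE 0.11, adjusted p = 0.0191). It stands outside the classes because the 60S list of symbols holds rrp14 and not rrp1402, and its product was not used to place it. Whether the rrp1402 probes also bind RNA of rrp14 was not tested. The other 4 match the symbol rule, but their products are known for other work. They are the helicase dbp2, the mRNA export helicase dbp5, and rrp1 and rrp2, which in S. pombe are SNF2-family DNA translocases. Their differences were -0.25, -0.15, -0.06 and 0.02, and with the block dbp2 alone fell (adjusted p = 0.0181). Without these 4 genes the median of the remaining 60 was -0.45, with the same 13 calls and 51 with the block.

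Loss of Cgs1 removes the inhibitor of the kinase, and the Δcgs1 arrays ask whether that disruption moves the same genes. No change passed the test: 0 of 64 genes rose or fell, with or without the block, and 0 had an unadjusted p under 0.05 in limma's test (115 of all 4940 genes). Over all genes 0.0607% fell and 0.0810% rose, or 0.182% and 0.648% with the block. The median difference was 0.01 (range -0.17 to 0.20), against 0.02 over all genes, 31 of 64 were below 0 (37.9% of all genes), and 15 were below 0 on both slides (20.2% of all genes). By class the medians were 0.02 for the processome, -0.00 for 60S assembly and -0.05 for the exosome. The widest differences were 0.20 in rrp2, which read 14023 and 16044 in Δcgs1 and 11671 and 14595 in the wild type, 0.18 in dbp9, which read 16937 and 19279 in Δcgs1 and 15777 and 16223 in the wild type, and -0.17 in nop52, which read 15057 and 18721 in Δcgs1 and 16437 and 21629 in the wild type. Only in dbp9 of these did the groups not overlap; both Δcgs1 arrays were higher in 1 of the 64 genes (8.02% of all genes) and lower in 1, nop10 (4.53% of all genes).

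In Δppt1, which lacks a coenzyme Q synthesis gene and no PKA subunit, most of the 64 genes were somewhat lower than in wild type. The median difference was -0.21 (range -0.51 to 0.19), against -0.02 over all genes, and 59 of 64 lay below 0 (58.8% of all genes), 50 of them on both slides (38.2% of all genes). None of these passed the test without the block: 0 of 64 fell, where 0.324% of all genes fell and 0.688% rose (16 and 34 genes, or 177 and 161 once array medians were matched), and 3 had an unadjusted p under 0.05 (451 of all genes). With slide as a block 20 of 64 fell, 11 of them in the processome, 7 in 60S assembly, 1 in the exosome (rrp4) and 1 outside the classes (rrp1), where 7.35% of all genes fell, and 0 rose (5.53% of all genes). Arrays of strains outside the comparison enter this fit only through its shared spread and slide term. The count of 20 fell when any 1 array was left out, of whichever strain. With the block it was 1 without the first Δcgs1 array, the second Δcgs1 array or the second wild type array, 3 without the second and 9 without the first Δppt1 array, 5 without the first wild type array, and 6 without either array labelled Δpka1. The median of -0.21 became -0.07 without the second wild type array and -0.11 without the first Δppt1 array.

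The largest of these differences was in nop8, an RNA-binding pre-60S factor gene in budding yeast, with 7084 and 9331 in Δppt1 and 10266 and 13103 in the wild type (-0.51, SE 0.17, adjusted p = 0.384, or 0.0385 with the block). Next came rrp16, with 14343 and 15318 in Δppt1 and 17673 and 21953 in the wild type (-0.41, adjusted p = 0.444, or 0.0237 with the block). In utp23 the arrays read 12022 and 12539 in Δppt1 and 14835 and 17194 in the wild type (-0.38, adjusted p = 0.305, or 0.0153 with the block). In these 3 genes both Δppt1 arrays lay below both wild type arrays, as they did in 27 of the 64 (14.2% of all genes). In contrast rrp40, rrp14 and nop10, which fell on the arrays labelled Δpka1, differed by -0.07, -0.09 and 0.06 in Δppt1.

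**Figure D4:**
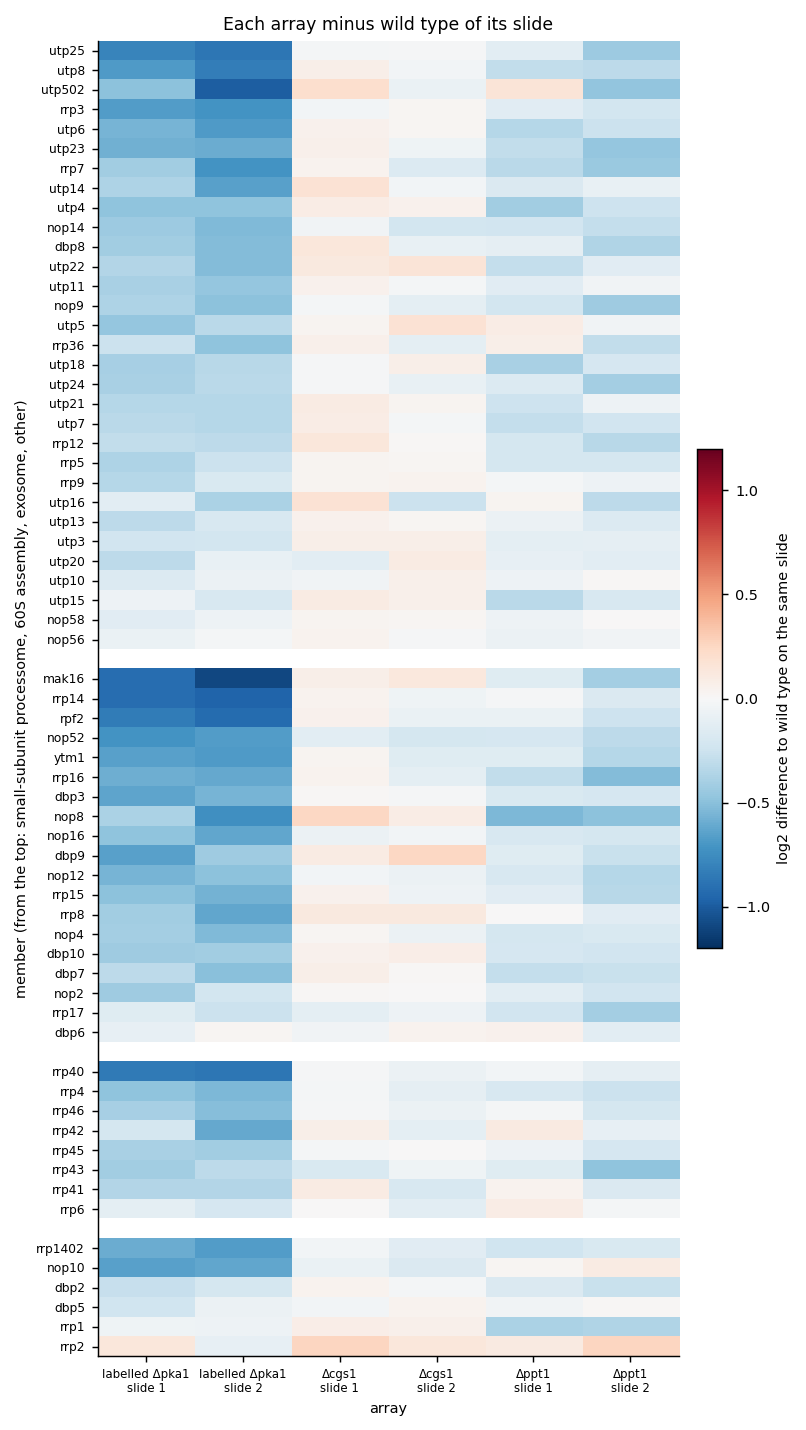
Heat map of the log2 difference between each disruptant array and the wild type array of its slide, for the 64 genes (rows, grouped by role) on 6 arrays (columns; colour runs blue below 0 and red above). The columns labelled Δpka1 are almost wholly below 0 (medians -0.40 and -0.48), those of Δcgs1 are near 0 (0.04 and -0.02) and those of Δppt1 lie between (-0.15 and -0.23).

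Set directly against Δcgs1, the other strain with the ura4 marker, the arrays labelled Δpka1 were lower in 64 of the 64 genes (64.4% of all genes), and on both slides in 64 (57.2% of all genes). Both arrays labelled Δpka1 lay below both Δcgs1 arrays in 52 (33.9% of all genes). The median difference was -0.44 (range -1.10 to -0.04), against -0.07 over all genes. Without the block 16 of 64 fell and 0 rose, where 5.97% of all genes fell and 4.37% rose. With it 52 fell and 0 rose, where 28.8% of all genes fell and 12.5% rose. The 16 hold the 13 that fell against wild type, a comparison that uses the same arrays labelled Δpka1, and also nop8, utp25 and utp502. In nop8 the arrays read 7867 and 7861 when labelled Δpka1, against 12226 and 13906 in Δcgs1 (-0.73, SE 0.17, adjusted p = 0.0456). The largest difference was again in mak16 (-1.10). Without the block fewer than these 16 passed the test when any array of either strain was left out. Fewer of all genes fell in these fits as well. With the block 34 fell without the first Δcgs1 array.

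Against Δppt1, which like wild type lacks the ura4 marker (1307 and 1000), the arrays labelled Δpka1 were lower, with a median difference of -0.22 (range -0.85 to 0.31; -0.02 over all genes). Of the 64 differences 59 were below 0 (55.9% of all genes), 51 of them on both slides (43.9%), and both arrays were lower in 33 genes (26.4%). Here 5 of 64 fell, namely mak16, rpf2 and rrp14 of 60S assembly, rrp40 of the exosome and nop10, and 0 rose, where 4.55% of all genes fell and 5.04% rose. With the block 32 fell (22.4% of all genes) and 1 rose (16.1% of all genes). The gene that rose was rrp1, with 13053 and 15603 on the arrays labelled Δpka1 and 10382 and 12748 in Δppt1 (0.31, SE 0.17, adjusted p = 0.00274 with the block). Without the block fewer than these 5 passed the test when any array of either strain was left out. Fewer of all genes fell in these fits as well. With the block 33 calls became 21 without the first and 18 without the second array labelled Δpka1, and the median became -0.12 and -0.34. In nop8 these strains did not differ beyond their spread (-0.05, SE 0.17). Over the 4 strains, the mean signal was lowest on the arrays labelled Δpka1 for 58 of the 64 genes (45.3% of all genes), in Δppt1 for 5 (28.1%), in Δcgs1 for 0 (11.1%) and in wild type for 1 (15.5%).

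Other genes of the pathway were read from lists that do not use the symbol rule. Of 68 further assembly factors, 7 fell and 0 rose on the arrays labelled Δpka1 against wild type, where 4.13% of all genes fell, and 57 fell with the block (24.0% of all genes). The median was -0.38 (range -0.75 to -0.00). Among them wdr74, the counterpart of the pre-60S factor Nsa1, read 22322 and 27927 on the arrays labelled Δpka1 and 37857 and 44908 in the wild type (-0.72, adjusted p = 0.0493). The rpf2 partner gene rrs1 read 18218 and 18677 on the arrays labelled Δpka1 and 25998 and 33211 in the wild type (-0.67, adjusted p = 0.0376). The nuclease gene nob1, for the enzyme that cuts the end of mature 18S rRNA, differed by -0.67 (adjusted p = 0.0269), and the rRNA dimethylase gene dim1 by -0.63 (adjusted p = 0.0497). Against Δcgs1, 11 of the 68 fell on the arrays labelled Δpka1 (5.97% of all genes), with arx1 (-0.82), rio1 (-0.75) and lcp5 (-0.70) the largest, and against Δppt1 2 fell (4.55% of all genes), dim1 (-0.68) and sqt1 (-0.61). Of the same 68, 0 rose or fell in Δcgs1 and in Δppt1 against wild type, and 20 fell in Δppt1 with the block (7.35% of all genes).

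Of 12 exosome subunits and cofactors outside the symbol rule, 0 rose or fell on the arrays labelled Δpka1 against wild type by limma, 3 had an unadjusted p under 0.05 (1129 of all 4940 genes) and 7 fell with the block (24.0% of all genes). The median was -0.21 (range -0.69 to -0.01). The poly(A) polymerase gene cid14, of the TRAMP complex that feeds RNA to the nuclear exosome, differed by -0.69 (adjusted p = 0.0592, or 0.0023 with the block). It fell against Δcgs1, with 10661 and 12425 on the arrays labelled Δpka1 and 17785 and 21068 in Δcgs1 (-0.75, adjusted p = 0.0419). The helicase gene mtr4 differed by -0.46 from wild type (adjusted p = 0.186, or 0.00213 with the block). Against wild type mtl1 differed by -0.12, ski2 by -0.06, ski3 by -0.01, ski7 by -0.02 and rec14 by -0.04. None of these was called with the block. Of 132 genes for cytosolic ribosomal proteins, the products that these factors build into subunits, 0 rose or fell on the arrays labelled Δpka1 without the block. With it 24 fell, a smaller share than the 24.0% of all genes, and the median was -0.04, as over all genes. Most of these genes lie near the upper end of the scale: 90 of the 135 genes found by ribosomal protein symbol, which include 3 RNase P subunits, reached a mean no more than 10% under the highest value, against 0 of the 64 assembly and processing genes. Their small differences can therefore not be set against those of the assembly genes.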

How the data were processed

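The authors deposited 1 table per array of gene-level EXPRS values, which are linear intensities that summarise 14 probes for nearly every gene, per the file headers. The sources used here do not state how they were summarised and normalized. A deposited series table held the same intensity values (largest difference 0). Genes were named by matching systematic names to RefSeq's ASM294v3 table. The members and all lists were chosen with earlier results of these data known. The values were log2 transformed and fitted with limma 3.58.1 in R 4.3.3, with 1 mean per strain over all 8 arrays and no filter, and p-values were adjusted over 4940 genes. Arrays of a replicate number share a code in their titles, taken here as the slide although the labels do not name it so, and same-numbered arrays deviated together in all 6 strain pairs (correlation 0.351 to 0.690), so the fit with slide as a block is printed where it changed a call or a count. Named genes were all members called in any comparison, those with the largest differences per class and comparison, those nearest the threshold, members with another known product, and called genes of the other lists with the largest differences. The limit for background signal and the 50000 limit were chosen after the data were seen. Leaving out arrays with the block, leaving out utp16, and leaving out the 4 members with other known products were alternatives chosen after seeing the data. Other alternatives changed the scale, filters, variance prior and arrays used. A planned search of promoters for sequence motifs was not run, since no sequences were used here.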

Additional observations from a re-analysis of the deposited data

How the results depend on the processing

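With slide as a replicate block, which pairs arrays of a slide, 52 members were called on the arrays labelled Δpka1 against wild type (13 without it), 52 against Δcgs1 (16), 33 against Δppt1 (5), 20 in Δppt1 against wild type (0) and 0 in Δcgs1 (0). Over all genes 1184 then fell and 724 rose on the arrays labelled Δpka1 against wild type (204 and 214 without it), 1422 and 619 against Δcgs1 (295 and 216), 1108 and 795 against Δppt1 (225 and 249), 363 and 273 in Δppt1 (16 and 34) and 9 and 32 in Δcgs1 (3 and 4). On the arrays labelled Δpka1 against wild type, member calls were 49 with array medians matched, 50 with quantile and 49 with cyclic loess normalization, 25 without genes near the highest value and 4 with only the 2 strains fitted. Over all genes 843 fell and 596 rose with medians matched, 1023 and 786 with quantile, and 828 and 905 with cyclic loess normalization. Without genes near the highest value 382 fell and 288 rose, and with only the 2 strains fitted 89 and 147. Against Δcgs1 member calls were 45, 49, 47 and 29 under the first 4 of these settings, and against Δppt1 30, 35, 29 and 8. In the same order, 874, 1056, 851 and 471 of all genes fell against Δcgs1, and 561, 788, 883 and 279 rose. Against Δppt1 802, 1048, 884 and 325 of all genes fell, and 634, 790, 915 and 328 rose. In Δppt1 against wild type member calls were 5, 20 and 17 under the 3 scalings. The cause of these differences was not tested. In Δcgs1 against wild type no setting gave a call. Without the block, most fits that left out an array also had fewer falling genes over the whole array. Leaving out each array gave 2 to 14 calls on the arrays labelled Δpka1 against wild type (38, 39, 44, 45, 46 or 53 with the block), 1 to 20 against Δcgs1 (34, 40, 44, 52 or 53), 0 to 6 against Δppt1 (18, 21, 25, 28, 30 or 35), and 0 in Δppt1 against wild type (1, 3, 5, 6 or 9). The median member difference then ranged between -0.58 and -0.30 on the arrays labelled Δpka1 against wild type, -0.53 and -0.33 against Δcgs1, -0.34 and -0.12 against Δppt1, -0.31 and -0.07 in Δppt1 and -0.10 and 0.13 in Δcgs1. Within these ranges, other settings gave -0.40 (medians matched), -0.40 (quantile), -0.36 (cyclic loess), -0.44 (slide 1) and -0.43 (slide 2) for the arrays labelled Δpka1 against Δcgs1, -0.19 (cyclic loess) and -0.25 (slide 1) against Δppt1, and -0.15 (slide 1) in Δppt1 against wild type. Matching array scales also shifted the balance of calls over all genes by over 10 points in Δppt1 (177 lower and 161 higher with medians matched, 376 and 322 with quantile, 326 and 316 with cyclic loess normalization) and in Δcgs1 (11 and 28 with medians matched, 20 and 43 with cyclic loess normalization). Of single named genes, 3 values reversed: leaving out each array, rrp6 on the arrays labelled Δpka1 against wild type ranged between -0.346 and 0.0171 (without wild type replicate 2), and rrp1 against Δcgs1 between -0.254 and 0.00388 (without the first array labelled Δpka1, and 0.00108 without Δcgs1 replicate 2). Neither gene was called there without the block. In all, 1875 values for named genes kept direction and side of the threshold, 489 passed it newly and 142 no longer passed it. Signals at or under 2497 cannot be told from background, and differences between the brightest signals may be understated, which was not tested.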

Other observations

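RNase P and the related RNase MRP, which cuts the precursor rRNA between the small and the large subunit parts, share protein subunits. Which RNase P subunits are shared was not examined. Measured under ribosomal protein symbols were 3 RNase P subunit genes. They were chosen after their values were seen. The gene rpp40 read 11635 and 13014 on the arrays labelled Δpka1, 17073 and 18340 in Δcgs1, 20687 and 26895 in Δppt1, and 16071 and 20172 in the wild type. It was lower on the arrays labelled Δpka1 than in Δppt1 (-0.94, SE 0.17, adjusted p = 0.0157 by limma). Against wild type it differed by -0.55 on the arrays labelled Δpka1 (adjusted p = 0.101, or 0.00529 with slide as a block) and by 0.39 in Δppt1 (adjusted p = 0.573, or 0.0387 with the block), while the median of the 64 assembly and processing genes in Δppt1 was -0.21. The gene rpp1 read 8414 and 9893 on the arrays labelled Δpka1 and 10869 and 13187 in the wild type (-0.39, adjusted p = 0.185, or 0.00194 with the block). The gene rpp21 read 5964 and 6209 on the arrays labelled Δpka1 and 7993 and 9027 in the wild type (-0.48, adjusted p = 0.0726, or 0.0304 with the block). None of the 3 was called in Δcgs1 against wild type with or without the block, where their differences lay between -0.10 and -0.01.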
